A study of Mus musculus with 8 samples.

Results

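The fatty acid elongases and desaturases of epididymal fat were followed across wild type (WT) and Ccdc92 knockout (KO) mice. The group held 9 genes, chosen by symbol: 5 elongases (Elovl1, Elovl4, Elovl5, Elovl6, Elovl7) and 4 desaturases (Fads1, Fads2, Fads3, Fads6), out of 24821 genes in the table. All were found. RNA was taken from epididymal white adipose tissue, a visceral depot beside the testis, of male C57BL/6 mice, giving 4 WT and 4 KO libraries. Both groups received a high-fat diet over 14 weeks, with fat supplying 60% of the calories, protein 20% and carbohydrate the other 20%. The WT mice were littermates of the same age as the KO mice, and the sources used here give neither that age nor how or where the gene was deleted. Whether each library is a separate animal is not stated, and p-values therefore cover just the spread among these libraries, which could be technical.

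Elongases add a pair of carbons to a fatty acyl-CoA at the endoplasmic reticulum, drawing on malonyl-CoA. The Elovl protein carries out the condensation that opens each round, and a reductase, a dehydratase and a second reductase complete it. Desaturases insert double bonds with electrons passed through cytochrome b5 and its reductase. Fads2 and Fads1 act in alternation with Elovl5 and Elovl2 to turn the dietary linoleic and alpha-linolenic acids into arachidonic acid and the long omega-3 acids, while Elovl6 lengthens palmitate to stearate, the substrate of the stearoyl-CoA desaturase Scd1.

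The libraries held 23681088 to 33817478 reads assigned to genes. Ccdc92 was at 54.1 to 105.8 normalized counts in WT and at 4.9 to 9.7 in KO. limma called 41.7% of 17798 tested genes (adjusted p under 0.05), 3592 of them higher in KO and 3831 lower. Quantile normalization called 4593 as higher and 3257 as lower and shifted the median change by 0.104 on the log2 scale, and the 8 tested members kept their direction and their side of the threshold under it. Adipocyte markers rose in 9 of 10 genes, their sum being 185095 to 398616 in WT libraries and 759861 to 1001174 in KO libraries. Macrophage markers fell in 10 of 10, their sum being 121804.5 to 294528.5 in WT libraries and 24444.2 to 40293.5 in KO libraries. Markers of mast cells fell in 6 of 6. T cell markers fell in 5 of 6, but in 2 of 6 without WT replicate 1, 3 or 4 or KO replicate 2 or 4, and in 3 without KO replicate 1. B cell markers fell in 1 of 5, but in 5 of 5 without KO replicate 3 and in 4 without WT replicate 4 and KO replicate 3. Fibroblast markers fell in 4 of 8, and without WT replicate 4 and KO replicate 3 in 2, with 1 higher. Endothelial markers rose in 3 of 6 (5 without WT replicate 2, and 2 without WT replicate 1 or 3 or KO replicate 2 or 3). None of 6 mesothelial markers passed, and of the mural, Schwann cell and skeletal muscle lists at most 2 genes each passed with all libraries. No listed marker was at 0 in a whole group. In bulk tissue, fewer cells of a type and less RNA per cell cannot be told apart, and the part of these shifts in the results below was not tested. Epididymis and vas deferens markers fell in 5 of 7 tested (7 of 7 without WT replicate 4 and KO replicate 3) and summed to 52340 to 119648 in WT and 9.7 to 1164.1 in KO. WT replicate 4 lacked some tract genes that the other WT libraries held (Adam7 at 0.9 against 7804.6 to 19828.7), held others that they nearly lacked (Akr1b7 at 80635.9 against 188.1 to 211.6), and had the highest tract sum of the WT libraries, and KO replicate 3 held the highest tract level of the KO libraries, so results are also given without these libraries.

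In KO fat, the desaturases Fads1, Fads2 and Fads6 and the elongase Elovl1 fell, and the desaturase Fads3 and the elongase Elovl5 rose. Elovl6 and Elovl7 did not pass, and Elovl4 was too low to test. Thus 6 of the 8 tested members passed, 2 higher and 4 lower, where 20.2% of all tested genes were higher and 21.5% lower. The groups did not overlap in 5 of the 8 (2 higher, 3 lower), against 42.1% of all tested genes (21% higher, 21.1% lower). Each of the 8 had at least 12.1 normalized counts in every library, so none entered the test through a single group. Without WT replicate 4 and KO replicate 3, 5 members passed, and Elovl1 was the gene that did not.

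**Figure D1:**
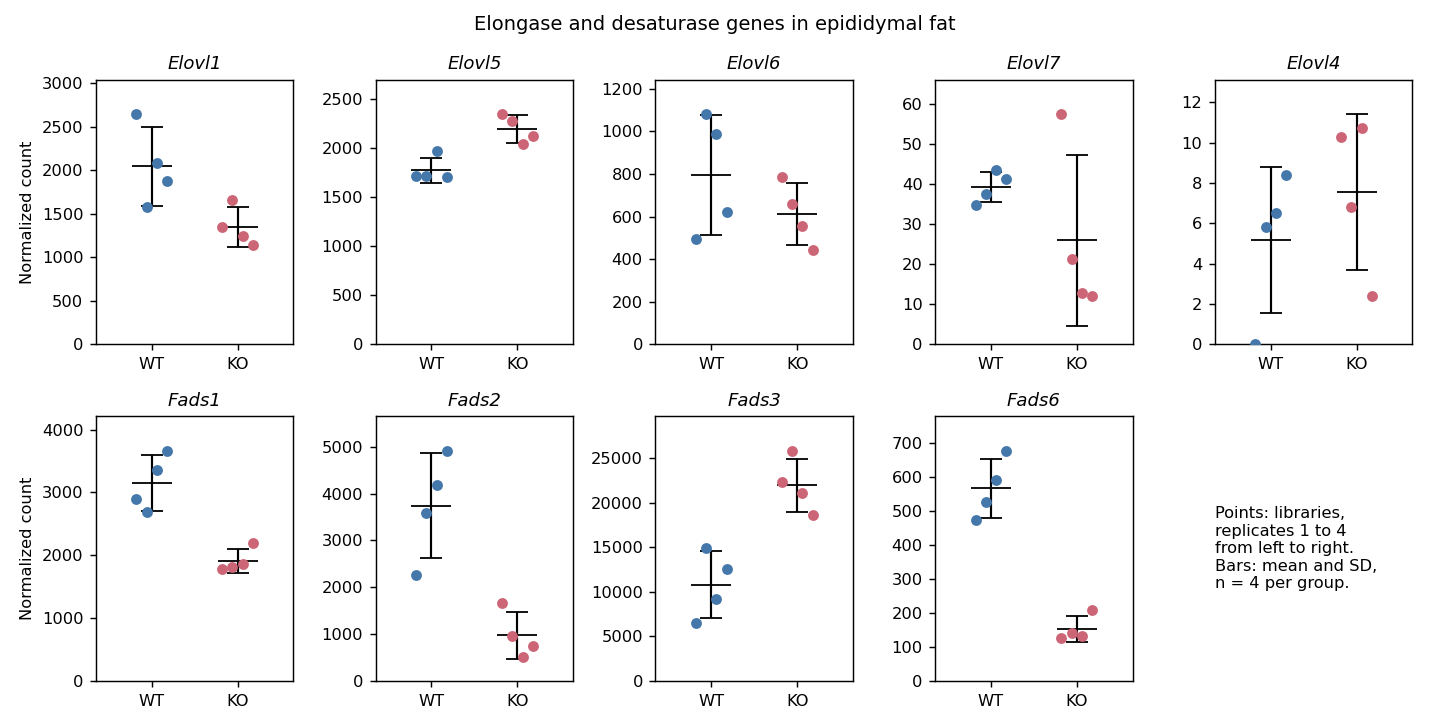
Normalized count (vertical axis, linear, from 0) of each of the 9 genes in WT and KO libraries. Points are libraries, and bars are the mean and SD of 4 libraries. Fads2 lies at 2267.6 to 4910.1 in WT and 520.2 to 1672 in KO, and Fads3 at 6491.9 to 14987.7 in WT and 18698.2 to 25844.9 in KO.

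Upstream sequence is shown for the 3 changed members whose transcription start in RefSeq lies within 25 bases of that in GENCODE, since both annotations place the promoter there: Elovl5 and Fads3, which rose, and Elovl1, which fell. The RefSeq table (GRCm38.p6) held windows, from 250 bases before to 50 after a start, for 8 of the 9 members. Each sequence below runs 5′ to 3′ on the plus strand and ends before the start. Capitals mark matches, on either strand, to the E-box CACGTG, the CCAAT box CCAAT or the GC box GGGCGG.
Elovl5, chr9:77917115-77917363: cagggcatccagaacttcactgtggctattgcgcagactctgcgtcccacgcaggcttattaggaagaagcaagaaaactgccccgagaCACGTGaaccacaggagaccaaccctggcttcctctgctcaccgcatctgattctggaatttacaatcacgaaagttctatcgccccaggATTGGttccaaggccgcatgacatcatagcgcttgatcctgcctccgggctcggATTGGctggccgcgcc
Fads3, chr19:10041298-10041547: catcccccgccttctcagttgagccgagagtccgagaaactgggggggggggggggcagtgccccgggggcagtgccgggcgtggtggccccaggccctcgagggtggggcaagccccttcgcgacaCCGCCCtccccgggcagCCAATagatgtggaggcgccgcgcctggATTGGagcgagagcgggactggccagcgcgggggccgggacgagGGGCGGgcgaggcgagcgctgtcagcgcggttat
Elovl1, chr4:118427843-118428092: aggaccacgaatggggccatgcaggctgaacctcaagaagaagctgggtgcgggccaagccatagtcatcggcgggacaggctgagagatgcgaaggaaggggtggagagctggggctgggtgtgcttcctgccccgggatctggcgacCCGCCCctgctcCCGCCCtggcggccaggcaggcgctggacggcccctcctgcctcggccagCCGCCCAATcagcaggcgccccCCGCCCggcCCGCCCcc
The Elovl5 window held 1 E-box and 2 CCAAT boxes and no GC box. The Fads3 window held 2 CCAAT boxes and 2 GC boxes. The Elovl1 window held 5 GC boxes and 1 CCAAT box, which overlaps a GC box. Among 32851 windows of this length, 7.15% held an E-box, 37.4% a CCAAT box and 35.7% a GC box. The sterol element TCACNCCAC, a form of the sequence bound by SREBP factors, was in 1.24% of all windows and in none of the windows of the 8 members. Fads1 had no window and was not searched. The RefSeq starts of Fads2 and Fads6 lay downstream of their GENCODE starts, so sequence before the GENCODE starts was searched only in part. A direct repeat of AGGTCA spaced by 4 bases (the LXR type) or by 1 base (the PPAR type) was in none of these members' windows either, and in 0.0152% and 0.0396% of all windows. These are matches of letters only.

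Fads2, the desaturase that opens the polyunsaturated pathway (ENSMUSG00000024665.8, chromosome 19, 10062765 to 10101746, minus strand, GRCm38), fell in KO. Its normalized counts were 2267.6, 3588, 4182.9 and 4910.1 in WT replicates 1 to 4 and 1672, 961.4, 520.2 and 737.4 in KO replicates 1 to 4. Every KO library lay below every WT library, with WT replicate 1 and KO replicate 1 closest to each other. The mean went from 3737 ± 1119 to 972.7 ± 499.7 (SD, n = 4), so that KO kept 26.0% of the WT level, and the log2 fold change was -2.02 (± 0.36 SE; adjusted p = 0.00334 in limma). Its direction and call held in all 20 alternative settings, with values from -2.32 to -1.61.

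Fads1, the desaturase of the next step, which makes arachidonic acid (ENSMUSG00000010663.5, chromosome 19, 10182888 to 10196877, plus strand), was at 2890.5, 2684, 3355.8 and 3660.1 in WT and at 1782.3, 1806.5, 1864.9 and 2193.9 in KO. The groups did not overlap, and the KO libraries were close together. KO kept 60.7% of the WT mean, with a log2 fold change of -0.71 (± 0.12 SE; adjusted p = 0.00211 in limma).

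Fads6, a further member of the desaturase family (ENSMUSG00000044788.10, chromosome 11, 115279622 to 115297663, minus strand), was at 474.3, 525.1, 589.5 and 676 in WT and at 126.4, 141.9, 133.3 and 207.4 in KO. The highest KO library was below the lowest WT library by more than the spread of either group. The mean fell from 566.2 ± 87.1 to 152.2 ± 37.3 (SD, n = 4), which is a log2 change of -1.90 (± 0.18 SE; adjusted p = 0.000365 in limma), which was the smallest adjusted p among the members.

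Fads3, which desaturates the long-chain base of sphingolipids rather than the dietary polyunsaturated acids (ENSMUSG00000024664.5, chromosome 19, 10041569 to 10060110, plus strand), went the other way. It was at 6491.9, 14987.7, 9201.3 and 12627.2 in WT and at 22330.9, 25844.9, 21124.9 and 18698.2 in KO. All KO libraries were above all WT libraries, although the WT values spanned a wide range from replicate 1 to replicate 2. The mean rose from 10827 ± 3741 to 22000 ± 2975 (SD, n = 4), which is a log2 change of 1.08 (± 0.25 SE; adjusted p = 0.00937 in limma).

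Among the elongases, Elovl5, the elongase of polyunsaturated chains that works between Fads2 and Fads1 (ENSMUSG00000032349.13, chromosome 9, 77917364 to 77984519, plus strand), rose by a small amount. Its normalized counts were 1708, 1708.9, 1963.4 and 1705 in WT and 2340.8, 2270.5, 2034.8 and 2117.5 in KO. Of the WT libraries, 3 were nearly equal and replicate 3 was higher, yet below every KO library. KO stood at 124% of the WT mean, with a log2 fold change of 0.31 (± 0.08 SE; adjusted p = 0.0147 in limma).

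Elovl1, which builds saturated and monounsaturated very long chains for sphingolipids (ENSMUSG00000006390.15, chromosome 4, 118428093 to 118432953, plus strand), was at 2645.6, 1578.1, 2080.3 and 1876.4 in WT and at 1351.4, 1662.9, 1241.5 and 1136.3 in KO. The groups overlapped, since KO replicate 2 exceeded WT replicate 2. The log2 fold change was -0.59 (± 0.17 SE; adjusted p = 0.0250 in limma), and this call was lost without WT replicate 3 (0.0617), KO replicate 1 (0.0514), KO replicate 3 (0.0638) or KO replicate 4 (0.0635), and without WT replicate 4 and KO replicate 3 together (0.0855), each a limma adjusted p. The exons of Elovl1 share 53 bases with Cdc20 on the opposite strand, a gene at 244.3 to 277.9 in WT and 60.6 to 144.4 in KO, and with the strand setting of the counting not given, reads there cannot be told apart.

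Elovl6, the elongase that lengthens the product of fatty acid synthase (ENSMUSG00000041220.10, chromosome 3, 129532355 to 129638495, plus strand), did not pass. It was at 492.6, 1080.9, 986.8 and 622.7 in WT and at 786, 658, 556.8 and 442.7 in KO, so that most KO values fell inside the WT range. The log2 fold change was -0.34 with a 95% interval of -0.97 to 0.29 (adjusted p = 0.352 in limma), which covers both a fall of the size seen for Fads1 and a small rise. Without WT replicate 1 the value was -0.55, and without WT replicate 2 it was -0.17.

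Elovl7, an elongase of saturated long chains (ENSMUSG00000021696.9, chromosome 13, 108214404 to 108285683, plus strand), was at 34.9, 37.5, 43.6 and 41.2 in WT and at 57.5, 21.4, 12.9 and 12.1 in KO. KO replicate 1 held the highest value of all and the other 3 KO libraries the lowest. The log2 fold change was -0.86 with a 95% interval of -1.90 to 0.18 (adjusted p = 0.160 in limma). Without KO replicate 1 it was -1.33 and passed (adjusted p = 0.00944 in limma).

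Elovl4, which makes the very longest chains of retina and skin (ENSMUSG00000032262.13, chromosome 9, 83778692 to 83806277, minus strand), had 0, 6, 7 and 9 reads in WT and 9, 8, 10 and 2 reads in KO. These low counts did not meet the filter of 10 normalized counts in 4 libraries. The count of 0 in WT replicate 1 allows a level of up to 2.75 normalized counts (3 reads, counting error only), and no test was made with the filter in place.

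**Figure D2:**
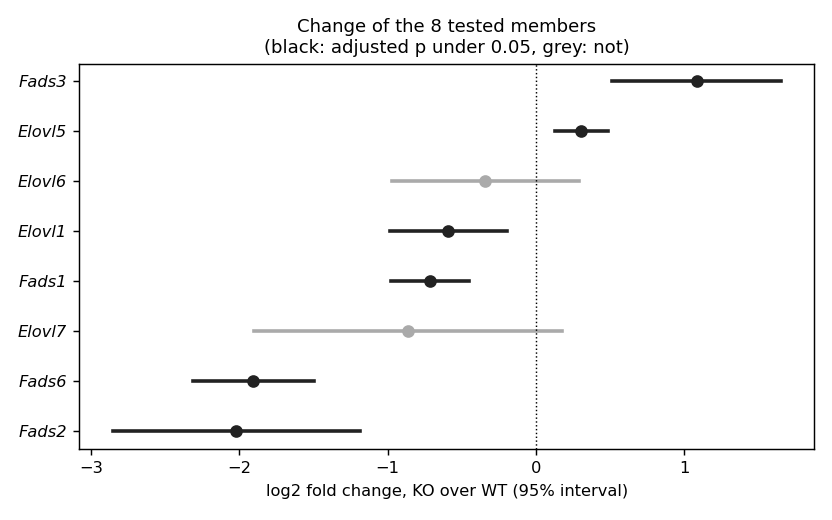
log2 fold change, KO over WT, of the 8 tested genes (horizontal axis), with the limma 95% interval as a line. Black marks an adjusted p under 0.05, and grey marks Elovl6 and Elovl7, whose intervals (-0.97 to 0.29 and -1.90 to 0.18) include 0. Fads2 (-2.02) and Fads6 (-1.90) lie farthest to the left and Fads3 (1.08) farthest to the right.

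To compare levels between genes, normalized counts were divided by the length of each gene's merged exons. Fads3 had the highest level per kilobase of the 9 genes in both groups, 2855 ± 987 in WT and 5802 ± 785 in KO (SD, n = 4). Fads2 had the next highest mean in WT with 1134 ± 340 per kilobase, although its spread overlapped that of Elovl1 and it was below Elovl1 in WT replicate 1. In KO it was at 295 ± 152, below Fads1 at 397 ± 39.7 and below Elovl5 and Elovl1. Elovl1 stood at 750 ± 165 in WT and 495 ± 83.5 in KO, and Elovl5 at 503 ± 36.3 and 622 ± 39.7. Fads1, at 654 ± 91.9 in WT, and Elovl1 did not differ there beyond their spread, and neither did Fads2 and Fads1 in KO. Elovl6 (124 ± 44 and 95 ± 22.7) and Fads6 (85.1 ± 13.1 and 22.9 ± 5.61) were lower in both groups, and Elovl7 and Elovl4 were under 10 per kilobase on average.

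The make-up of each family shifted accordingly. Of the summed level per kilobase of the 4 Fads genes, Fads3 made up 59.5% ± 6.98 in WT and 88.9% ± 2.16 in KO (SD, n = 4), with 54.1% to 69.6% in WT libraries and 86.8% to 90.8% in KO libraries. Fads2 went from 24.0% ± 4.06 to 4.48% ± 2.10, and Fads1 from 14.6% ± 4.07 to 6.21% ± 1.36 of that sum. Of the summed level of all 7 mouse elongases, Elovl1 held 50.5% ± 8.42 in WT and 40.2% ± 3.07 in KO, and Elovl5 34.1% ± 3.02 and 51.0% ± 3.28. Elovl5 held the larger share in every KO library and Elovl1 in every WT library. Annotated exons were taken as equally used, so these shares are approximate.

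**Figure D3:**
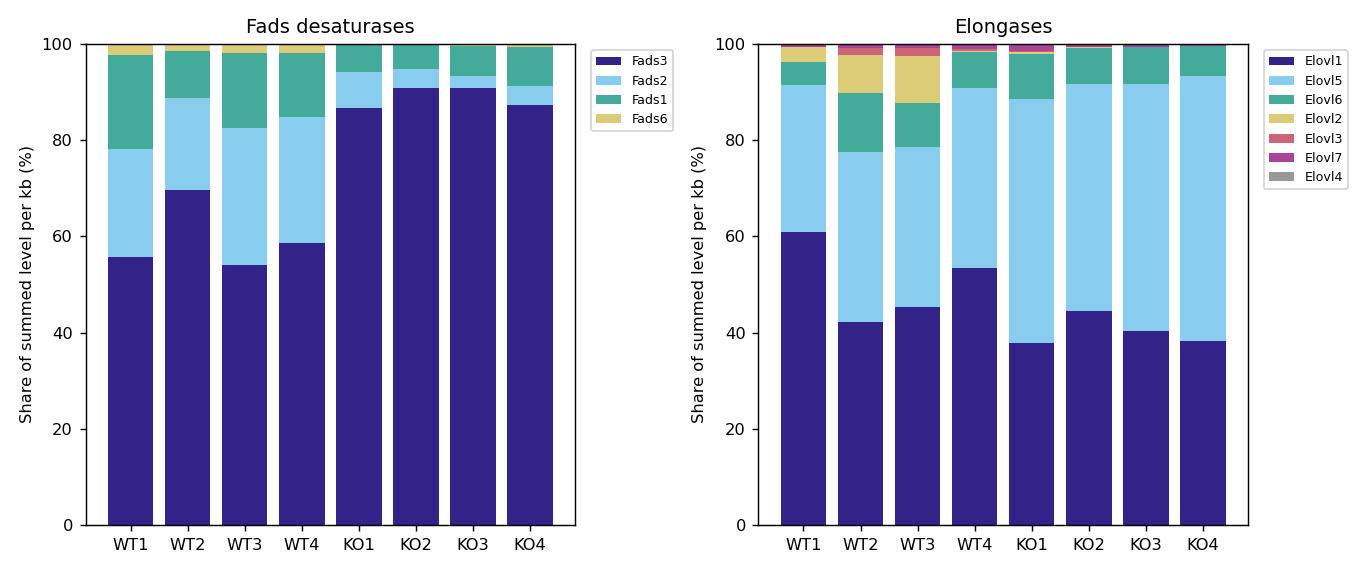
Share (%) of the summed level per kilobase held by each Fads gene and by each elongase in each library, stacked to 100. Fads3 fills 54.1% to 69.6% of the Fads bars in WT and 86.8% to 90.8% in KO, and Elovl5 fills 30.5% to 37.5% of the elongase bars in WT and 47.1% to 55.1% in KO.

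Whether pairs of pathway genes changed unequally was tested on the log2 ratio of the normalized counts within each library, which does not depend on its scaling factor, by exact permutation (two-sided, 70 splits), adjusted over the 5 ratios. The ratio of Fads3 to Fads2 was 1.52, 2.06, 1.14 and 1.36 in WT and 3.74, 4.75, 5.34 and 4.66 in KO. It was thus higher in every KO library, by 3.10 on average, at the smallest p the design allows (exact permutation p = 0.0286, adjusted p = 0.0714). That p was settled beforehand, since Fads3 and Fads2 each separated the groups, in opposite directions. It therefore adds nothing to the results of the 2 genes. The ratio of Fads1 to Fads2 was 0.35, -0.42, -0.32 and -0.42 in WT and 0.09, 0.91, 1.84 and 1.57 in KO. KO replicate 1 lay below WT replicate 1, and the difference of 1.31 did not pass (exact permutation p = 0.0571, adjusted p = 0.0952). The ratio of Elovl6 to Scd1 was lower in all KO libraries, with a difference of -2.71 (exact permutation p = 0.0286, adjusted p = 0.0714). Elovl5 over Elovl6 differed by 0.65 (exact permutation p = 0.0857, adjusted p = 0.107) and Elovl1 over Elovl6 by -0.25 (exact permutation p = 0.657, adjusted p = 0.657). None of the 5 ratios passed after adjustment with all libraries. The smallest p was also 0.0286 with 1 library left out. At that p, a ratio can pass the adjustment only if enough of the other ratios also reach it. Whether a ratio passed below therefore depends on the other ratios too. The ratio of Fads3 to Fads2 stays separated with any library left out, since both genes do. Without WT replicate 1, the ratios of Fads3 to Fads2, Elovl5 to Elovl6 and Elovl6 to Scd1 passed, and without KO replicate 1 those of Fads3 to Fads2, Fads1 to Fads2 and Elovl6 to Scd1 (exact permutation adjusted p = 0.0476 for each), while the difference of Elovl1 over Elovl6 changed sign without WT replicate 1 (0.088).

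Within groups, the genes with the highest likeness differed between members. Likeness was taken as Pearson's r of log2 values after subtracting the group mean, over 8 libraries and among genes with a mean of at least 50, and it is a description that depth and tissue make-up of the libraries share. Fads3 was most like Pecam1 (r = 0.998) and Cdh5 (r = 0.993), which encode the endothelial junction proteins CD31 and VE-cadherin. Pecam1 itself was at 4096.8 to 8005 in WT and 7129.8 to 9429 in KO, with a change of 0.46 (log2) that missed the threshold (adjusted p = 0.103 in limma), against 1.08 for Fads3. Cdh5 had a log2 fold change of 0.65 (adjusted p = 0.0606 in limma). Elovl1 was most like Fxyd5 (0.996) and Snx8 (0.992). Elovl6 was most like Galnt18 (0.984) and Prrg3 (0.971), Fads6 like Eml1 (0.990) and Arhgap44 (0.983), Fads1 like Matn4 (0.977) and Bmyc (0.963), Fads2 like Calml4 (0.967) and Dnal1 (0.960), and Elovl5 like Itih3 (0.964) and Fbp1 (0.960).

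The marker lists were then set beside the members, a choice made after these values were seen. Pecam1 and Cdh5 belong to the endothelial list, so the sum of its other 4 markers (Kdr, Tie1, Robo4 and Emcn) was used. It was 4746.2, 8983, 6327.3 and 8495.2 in WT replicates 1 to 4 and 14055.1, 12826.7, 13597.4 and 13951.4 in KO replicates 1 to 4, higher in every KO library. Within WT, the libraries fell in the same order by Fads3 and by this sum. Within KO they did not, since replicate 2 was the highest in Fads3 and the lowest in the sum. The sum of all 6 endothelial markers had the order of Fads3 in both groups, but it holds the 2 genes picked for their likeness to Fads3. The adipocyte sum gave the order of Fads3 in WT but not in KO, where replicates 3 and 4 had the higher adipocyte sums and the lower Fads3 values. Elovl1 had the order of the macrophage sum in WT, highest in replicate 1 and lowest in replicate 2, and differed from it in KO only in the places of replicates 3 and 4. The fibroblast sum had the same order as the macrophage sum in both groups, and the T cell sum had it in WT. The order of Elovl1 is thus not particular to the macrophage list. Fads2 was lowest in WT replicate 1, the WT library with the highest macrophage sum and the lowest adipocyte sum. Its WT order was not that of the adipocyte sum, since Fads2 peaked in replicate 4 and the sum in replicate 2. The tract sum (epididymis and vas deferens markers) was also lowest in WT replicate 1 (52340.4) and highest in WT replicate 4 (119647.7). Its WT order differed from that of Fads2 in the places of replicates 2 and 3. In KO, Fads2 was lowest in replicate 3 (520.2), which had the highest adipocyte sum (1001173.9) and the lowest macrophage sum (24444.2). KO replicate 3 also had the highest tract sum of its group (1164.1). Fads2 was highest in KO replicate 1 (1672), where the adipocyte sum (761337.2) was lower than in replicates 3 and 4. Across groups, Fads2, the macrophage sum and the tract sum fell in KO while the adipocyte sum rose. The part of cell make-up in these results was not tested.

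**Figure D4:**
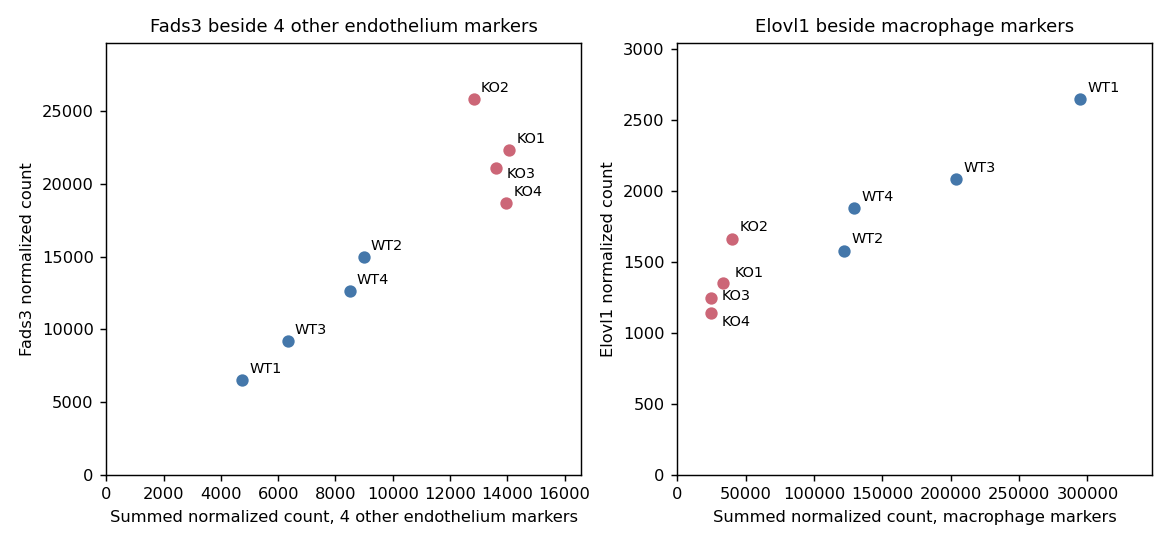
Normalized count of Fads3 against the summed normalized count of the 4 endothelial markers other than Pecam1 and Cdh5, and of Elovl1 against that of 10 macrophage markers, with 1 point per library (blue WT, red KO). Fads3 follows the order of this sum in WT (4746.2 to 8983) and not in KO (12826.7 to 14055.1). The macrophage sum lies at 24444.2 to 40293.5 in KO, far below WT, while Elovl1 values of the groups overlap. The fibroblast sum (not drawn) had the order of the macrophage sum in both groups.

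The pathway lists are read against the 20.2% of all tested genes called higher and the 21.5% called lower. The partners that complete each elongation round went both ways, 3 of 6 tested genes higher and 2 lower. Hacd2, a dehydratase of the cycle, rose from 3521 ± 1169 to 6560 ± 618 (SD, n = 4), which is a log2 change of 0.96. The related Hacd4 (-0.80) and Hacd3 (-0.31) fell. Hsd17b12, the ketoacyl reductase, rose by 0.28 (adjusted p = 0.0391 in limma), and this was lost when WT replicate 1 (0.0869) or 3 (0.112) or KO replicate 1 (0.103), 2 (0.0848) or 3 (0.0736) was left out, and under quantile normalization (0.0607). Hacd1 (0.45, adjusted p = 0.0475 in limma) was the other gene called higher. Without WT replicate 1 or 3, KO replicate 1, 2 or 3, or WT replicate 4 and KO replicate 3 together, 1 partner was called higher and 2 lower. Tecr, the closing reductase, had a log2 fold change of -0.049 with a 95% interval of -0.38 to 0.28.

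Of the other elongases and desaturases, 1 of 7 tested genes rose and 1 fell. Scd1, the stearoyl-CoA desaturase, was at 89129 to 216281 in WT and 647468 to 871662 in KO, without overlap. The rise of 2.37 (log2) was 2.12 to 2.55 with 1 library left out. Its call was lost under quantile normalization (0.77, adjusted p = 0.231 in limma). Scd3 had a log2 fold change of 0.74 (adjusted p = 0.100 in limma) and passed under quantile normalization (0.93, adjusted p = 0.0345 in limma). Degs2, a sphingolipid desaturase and hydroxylase at 45.9 to 66 in WT and 15.8 to 40.2 in KO, fell by 0.92 (adjusted p = 0.0375 in limma), and this was lost without any single WT library (0.0548 to 0.0960), without KO replicate 3 (0.0812) or KO replicate 4 (0.0649), and under quantile normalization (0.0982). Elovl2, the elongase of the longest polyunsaturated acids, was at 189.9, 422.2, 654.5 and 2.8 in WT and at 14.9, 17.1, 5.4 and 2.4 in KO. The first 3 WT libraries were far above all others and WT replicate 4 was among the KO values, as for the tract gene Adam7. Elovl2 did not pass in limma (log2 fold change -3.74, adjusted p = 0.0783), but did in edgeR (adjusted p = 0.0145), in DESeq2 (0.000223) and in limma without WT replicate 4 (0.00139). It also passed in limma with library weights (adjusted p = 0.0114), with the replicate block (0.0385) and without WT replicate 4 and KO replicate 3 together (0.00618). It did not pass in limma under quantile normalization (adjusted p = 0.110) or with any other single library left out. Elovl3, an elongase of skin and brown fat that was too low to test, was at 5.5, 41.4, 58.5 and 14 in WT and at 9.2, 1.7, 0 and 0 in KO, where 0 allows up to 3.22 and 3.64.

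Of the electron donors of the desaturases, 1 of 6 genes rose and 1 fell, beside 41.7% of all tested genes called. Without WT replicate 2, and with library weights, 2 rose and 1 fell. No result about the list is read from these counts. Cyb5a, the microsomal cytochrome b5, rose from 4629 ± 413 to 9388 ± 1424 (SD, n = 4), which is a log2 change of 1.01 (adjusted p = 0.000659 in limma). Its reductase Cyb5r3 had a log2 fold change of 0.0072 with a 95% interval of -0.25 to 0.27. Cyb5r4 fell (-0.73), and Cyb5r1 (0.11) and Cyb5r2 (0.55) did not pass. Cyb5r2 passed without WT replicate 2 (0.86, adjusted p = 0.0381 in limma) and Cyb5r1 with library weights (0.22, adjusted p = 0.0422 in limma).

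Regulators of these genes rose in 6 of 12 and fell in 3, with a median log2 fold change of 0.57 (0.27 with library weights) against -0.0065 over all tested genes. Srebf1, whose product activates lipogenic genes and is an established activator of Fads1, Fads2 and Elovl6, was at 5522.3 to 7514.5 in WT and 12192.2 to 16379.4 in KO (log2 fold change 0.96, limma adjusted p = 0.00137). Its direction was thus opposite to that of Fads1 and Fads2. This compares RNA levels only, and regulation of these genes by SREBP was not tested. Mlxipl, the carbohydrate response factor ChREBP, rose by 1.08, the liver X receptor Nr1h3 by 0.56 and Pparg by 1.00. Insig2, which retains SREBP in the endoplasmic reticulum, also rose (0.97), and Srebf2, the factor of cholesterol synthesis, fell (-0.82), as did Scap (-0.33) and Mlx (-0.33), the latter a partner of ChREBP. The adipocyte sum was higher in the same KO libraries, and Pparg is in both lists.

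Genes that supply acyl-CoA and malonyl-CoA rose in 4 of 10 and fell in 3 (median 0.57, and 0.34 without WT replicate 1). Thrsp (2.47), the acetyl-CoA carboxylases Acaca (1.74) and Acacb (2.15) and the fatty acid synthase Fasn (1.29) rose, and the acyl-CoA synthetases Acsl3 (-0.41) and Acsl5 (-0.30) fell. Acsl4, the synthetase that prefers arachidonic acid, was at 1777.8, 1938.7, 1845.5 and 1868.9 in WT and at 736.6, 819.5, 792.2 and 754.3 in KO. Both groups were tight and far apart, with a log2 fold change of -1.26 (± 0.07 SE; adjusted p = 7.81e-05 in limma).

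Peroxisomal genes, which shorten very long chains and complete the synthesis of docosahexaenoic acid, rose in 7 of 12 and fell in 2 (median 0.66, and 0.38 with library weights). The fatty acid transporter Abcd2 rose by 1.60 and the bifunctional enzyme Hsd17b4 by 0.72, while the oxidase Acox3 fell (-0.91). The groups of Acox3 overlapped, with WT replicate 4 (1933.5) among the KO values (1595.1 to 2054.3). Without WT replicate 4 and KO replicate 3, 5 of the list rose and 2 fell. Listed acyltransferases of phospholipid fell in 5 of 10 and rose in 1 (median -0.62, and -0.34 over those with at least 50 in all 8 libraries). This list was not limited to enzymes that prefer polyunsaturated chains. Mboat2 (-3.53), Mboat1 (-1.91), Lpcat2 (-1.11), Lpcat1 (-0.67) and Mboat7 (-0.60), which loads arachidonic acid onto phosphatidylinositol, fell. Agpat3 (0.37) rose, though not without WT replicate 4 and KO replicate 3, where none of the list rose. Lpcat3, the acyltransferase for polyunsaturated phosphatidylcholine, had a log2 fold change of 0.02 with a 95% interval of -0.20 to 0.24. Among genes that release or oxygenate polyunsaturated chains, 3 of 10 fell and 1 rose, near the 41.7% of all tested genes called. Without WT replicate 4, 3 rose, and without KO replicate 4, 2 rose. Pla2g15 was at -1.35 and Pla2g4a, a phospholipase that releases arachidonic acid, at -1.01. Alox5ap, the partner of 5-lipoxygenase, was at -1.46 and Pla2g6 at 0.61. Macrophage markers fell in the same libraries, and Alox5ap was highest in WT replicate 1 (4129.8), where the macrophage sum was also highest.

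Fads1, Fads2 and Fads3 lie side by side on chromosome 19, with Fads3 and Fads2 converging and Fads2 and Fads1 diverging. Of the 6 listed neighbours, 3 fell and none rose, where 21.5% of all tested genes were lower: Rab3il1 (-1.27), next to Fads3, and Fen1 (-1.49) and Tmem258 (-0.42), on the Fads1 side. Without WT replicate 2, and with library weights, 5 of the 6 fell. Fads3 was the only one of the 9 genes of this stretch that passed as higher. Leaving out WT replicate 3 removed the call of Tmem258 (adjusted p = 0.0584 in limma). Fen1 and Tmem258 overlap on opposite strands, so their reads cannot be fully told apart.

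**Figure D5:**
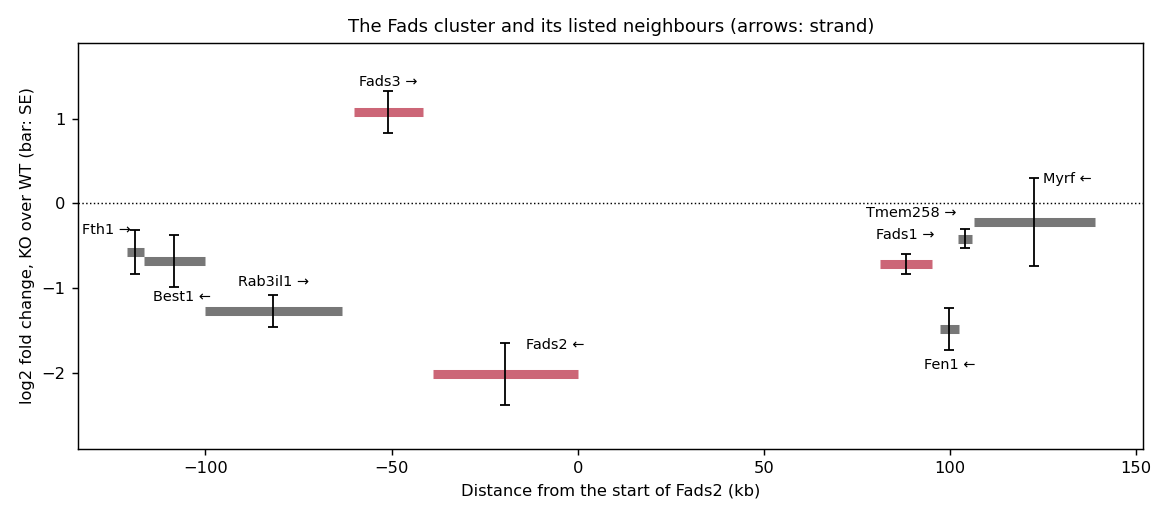
log2 fold change, KO over WT, with its SE (vertical axis) of Fads1, Fads2 and Fads3 (red) and 6 neighbouring genes (grey), drawn at their distance in kilobases from the start of Fads2, with an arrow for the strand. Fads3 (1.08) lies above 0, and Fads2 (-2.02), Fads1 (-0.71), Rab3il1 (-1.27), Fen1 (-1.49) and Tmem258 (-0.42) lie below.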

How the data were processed

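The deposited values were normalized counts per gene (a signal scaled by the authors, not whole counts). Per the submitters' processing notes, the tools were STAR 2.7.7 and DESeq2 and the genome was GRCm38.p6; the read counter, strand setting and annotation were not given in the sources used here. Dividing by the smallest step of each library turned 100% of them into whole reads (tolerance 0.01). Of 24821 identifiers, 24802 matched GENCODE M21 (GRCm38), source of the symbols, coordinates and exon lengths.

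limma 3.58.1 (R 4.3.3) was fitted to log2(normalized count + 1) with the group as the only term, robust and with a trend, for genes with at least 10 in at least 4 libraries. p-values were adjusted by Benjamini-Hochberg over all 17798 genes tested, with a threshold of 0.05. Fold changes are on that log2 scale and understate changes of low genes. edgeR 4.0.16 and DESeq2 1.42.0 on the recovered reads served as alternatives (7459 and 8336 genes called).

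The members, lists, ratios and tests were chosen with earlier results of these data known. The rule for named genes took all members, 10 fixed pathway genes, up to 3 more per pathway list with the smallest adjusted p and the 2 genes most like each member. Other called genes of a list were named after their values were seen, and 1 listed gene is not reported here by name. Floors from reads cover counting error only, and the limma intervals cover the spread among libraries.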

Additional observations from a re-analysis of the deposited data

Results flagged for a closer look

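In 10 of 112 groups of 4 libraries, 1 library stood apart from the other 3 by more than Dixon's 95% limit, which chance passes in about 1 of 20 groups. Among the members, Elovl5 was at 1963.4 in WT replicate 3, above 3 nearly equal WT values, and the log2 ratio of Fads1 over Fads2 was 0.35 in WT replicate 1, above -0.32 or less in the other WT libraries. KO replicate 4 stood apart in Srebf1 (16379.4) and Mlxipl (2132). KO replicate 3 stood apart in Hacd4 (646), Srebf2 (1435) and Crisp1 (37.6). Hacd4 was also low in WT replicate 2 (1032.8). Lpcat3 was high in KO replicate 2 (2420.1) and Degs2 in WT replicate 1 (66).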

How the results depend on the processing

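Fads1, Fads2, Fads3, Fads6 and Elovl5 kept their direction in all 20 alternatives, and all but Elovl5 kept their call in all 20. With the replicate number as a block, Elovl1 (-0.59, limma adjusted p = 0.0535) and Elovl5 (0.31, limma adjusted p = 0.0557) missed the threshold, 4 members passed and 6266 genes passed. The numbers give no sign of pairing (correlation of same-number deviations -0.143 to 0.172). Without WT replicate 4 and KO replicate 3, Elovl1 was at -0.59 and not called. Leaving out 1 library at a time gave -0.71 to -0.46 for Elovl1, -1.33 to -0.61 for Elovl7, -0.55 to -0.17 for Elovl6, and for the ratios 2.86 to 3.40 (Fads3 over Fads2), 1.06 to 1.64 (Fads1 over Fads2), 0.46 to 0.84 (Elovl5 over Elovl6), -2.98 to -2.54 (Elovl6 over Scd1) and -0.54 to 0.088 (Elovl1 over Elovl6, sign changed without WT replicate 1). Neither 3 libraries against 3 (smallest exact permutation p 0.100) nor 4 pairs (0.125) can pass, so no ratio was tested there. Without a filter, Elovl4 had a log2 fold change of 0.73 (95% interval -0.98 to 2.43, limma adjusted p = 0.501), and it changed sign without WT replicate 1 (-0.016). Signs also changed for genes near 0: Tecr (-0.16 to 0.076 with 1 library left out, above 0 without WT replicate 2), Lpcat3 (-0.056 to 0.069, below 0 without WT replicate 2, at -0.020, or KO replicate 2) and Cyb5r3 (-0.095 to 0.069, below 0 without WT replicate 4, at -0.013, or KO replicate 2, and at -0.0022 under quantile normalization). Pathway genes passing numbered 40 to 54, against 47. The cause of these changes was not tested. Elovl4 and Elovl3 did not meet the filter on low counts.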

Other observations

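WT replicate 4 stood apart from the other WT libraries in several pathway genes. Mboat2 and Ptgs2, which did so in opposite directions, are given here, named after their values were seen. Acox3 was at 1933.5 in WT replicate 4, among the KO values (1595.1 to 2054.3). It was at 3941.7 to 4588.1 in WT replicates 1 to 3. Elovl2 was also low in WT replicate 4 (2.8). Mboat2, an acyltransferase of the phospholipid list, was at 466, 857.8 and 756.6 in WT replicates 1 to 3, at 72.1 in WT replicate 4 and at 15.8 to 53.8 in KO. The epididymis gene Adam7 was likewise near 0 in WT replicate 4 alone among the WT libraries. Ptgs2, the inducible cyclooxygenase that uses arachidonic acid, was at 14825.7 in WT replicate 4 and at 21.4 to 38.5 in the other 7 libraries. The vas deferens gene Akr1b7 was also high in that library (80635.9) and at 211.6 or less in the others.

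Among the members themselves, within-group deviations of log2 values over 8 libraries went together most for Fads1 and Fads6 (r = 0.858) and for Elovl7 and Fads2 (r = 0.840), and least for Elovl1 and Fads3 (r = -0.536). Fads1 and Fads2 had r = 0.116. These values describe 8 libraries that share their normalization and tissue make-up.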
